A study of Mus musculus with 12 samples.

Results

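Magi1, Cobl, Klhl2, Psd3, Hoxa10, Plod2 and Dbf4 are the 7 genes that held the strongest intronic hnRNP H CLIP positions of mouse striatum. Magi1, Cobl, Klhl2 and Psd3 were chosen because a position in each had the most reads of all intron positions, summed over 6 CLIP libraries. Hoxa10, Plod2 and Dbf4 were chosen because the authors' deposited list for methamphetamine gave an intron peak of each its highest signal values. Together they came to 7 genes and 23 positions, beside 16910 genes and 147438 positions in the CLIP counts. There were 5 positions in each of the first 4 genes and 1 in each of the others. The position that the list names for Plod2 was counted as its own, while among the 16910 genes it stands under Gm38391. The summed reads and signal values that chose the genes are given as descriptions, without a test. In the CLIP counts, the test between treatments is given only for the 4 genes chosen on reads, a choice that did not use the treatment. For Plod2 the annotation went against the name in the list. The position lay on the strand opposite to Plod2, in an exon of Gm38391, a gene model of GENCODE's TEC class (not yet checked by experiment), and its line in the count table carried the Gm38391 identifier.

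CLIP (cross-linking and immunoprecipitation) reads the RNA that a protein touches; here an antibody against hnRNP H was used, and RNA-seq of a part of the same tissue taken before cross-linking measured RNA levels. All animals were wild-type C57BL/6J mice from matings of males heterozygous for an Hnrnph1 mutation with C57BL/6J females, aged 50 to 100 days. All mice had 2 days of saline injections. On day 3 they received methamphetamine at 2 mg/kg or a further saline injection, and whole striata were taken 30 min after that injection. Each assay had 3 saline and 3 methamphetamine libraries, and each library came from a pool of 4 mice, 2 of them female and 2 male, from several litters. Mutant mice were not analysed here. CLIP libraries held 423057 to 1635338 reads in positions, and RNA-seq libraries 3935160 to 5091839 reads. CLIP levels are given in CPM, the count of a position scaled to the reads that the library had in all positions.

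hnRNP H is a nuclear RNA-binding protein that recognises runs of G in pre-mRNA. It is known above all as a regulator of splicing and of 3′ end formation, and it acts from introns as well as exons, enhancing or repressing the use of an exon depending on where it is bound. In neurons and other cells it also occurs in the cytoplasm.

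The libraries were divided into 2 sets by the sign of their score on the first principal component, which always gives 2 sets. The labels do not name these sets, and they crossed the treatments. In both assays saline replicates 1 and 3 and methamphetamine replicate 2 had the same sign (set A). Saline replicate 2 and methamphetamine replicates 1 and 3 had the opposite sign (set B). The component held 65.6% of the variance in RNA-seq and 48.1% in CLIP. Differences between the sets come from the same values that drew them, so they were partly set by the division. Summed RNA-seq levels of 8 striatal projection neuron markers were 7203 to 8368 CPM in set A and 5193 to 6029 CPM in set B. Those of 4 cortical excitatory neuron markers were 120 to 334 CPM in set A and 357 to 712 CPM in set B, those of 3 astrocyte markers 296 to 390 CPM and 447 to 548 CPM, and those of 3 microglia markers 139 to 162 CPM and 170 to 216 CPM. The sets overlapped in 3 oligodendrocyte markers, at 3631 to 8652 CPM in set A and 4827 to 8928 CPM in set B. They also overlapped in 3 choroid plexus markers, which summed to 4770 CPM in methamphetamine replicate 2 and to 36.4 to 187 CPM in the other libraries. All markers of the 6 lists were above 0 in every library. The part of these differences in the results was not tested, and in bulk tissue fewer cells of a type and less RNA per cell cannot be told apart.

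The position named for Plod2 is shown because it was the only one of the 7 strongest positions that lay within an exon of an annotated transcript. It covered chr9:92542702-92542801 (GRCm38), and its sequence was read from the GENCODE M21 transcript of Gm38391 on the minus strand. Capitals mark runs of 3 or more G.
Plod2 antisense (Gm38391): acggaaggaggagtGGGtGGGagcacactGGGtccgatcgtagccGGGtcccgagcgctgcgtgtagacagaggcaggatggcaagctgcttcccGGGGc
These 100 nt held 5 runs of 3 or more G, the longest of 4, and 43% G. The motif GGG was searched on the transcript strand only, and overlapping matches were joined into 1 run. Of 3510 exonic positions of the same length in either deposited final list, 82.6% had at least 1 such run and 17.3% had at least 5. Of all 25460 exonic positions in the CLIP counts, 71.1% had a run and 8.59% had at least 5. The position thus held more G-runs than most listed exonic positions, and no other transcript shared 20 nt with it. A match of letters is a description of the sequence and not a measured contact.

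The 4 genes chosen on reads encode proteins of cell contacts, actin, protein turnover and membrane traffic. Magi1 encodes a scaffold protein of cell junctions with several PDZ domains. Its strongest position, chr6:94254456-94254555 on the minus strand, lay in intron 1 of 23 of the principal transcript, an intron of 339689 nt, and 17014 nt from the nearest exon of any of its transcripts. Over the 6 libraries it had 37314 reads, the most of any intron position. The level was 8224, 5356 and 6967 CPM in saline replicates 1, 2 and 3 and 3073, 9034 and 5622 CPM in methamphetamine replicates 1, 2 and 3. Methamphetamine replicates held both the lowest and the highest value, so that the treatments overlapped.

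Cobl encodes cordon-bleu, an actin nucleator that shapes dendrites. Its strongest position, chr11:12238609-12238708, was in intron 14 of 14 and 550 nt from the nearest exon, and had 26332 reads. The level was 5536, 3527 and 4683 CPM in the saline replicates and 2352, 5810 and 5912 CPM in the methamphetamine replicates. The lowest value and the highest ones again came from methamphetamine. The position of 100 nt next to it, chr11:12238509-12238608, had 2670 reads, and in each library it held 8.65% to 11.6% of the count of its neighbour. Nearly all positions in the table (99.2%) sat on tiles of 100 nt counted from the start of their own gene, so that a single pile of reads can fall on 2 positions.

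Psd3 encodes an exchange factor for the small GTPase ARF6 at the postsynaptic density. Its strongest position, chr8:68182683-68182782, lay in intron 1 of 16 of a transcript that is not the principal one, 22767 nt from the nearest exon, and had 24815 reads. Saline replicates had 5727, 3056 and 4353 CPM and methamphetamine replicates 3150, 6227 and 2360 CPM, and the lowest and the highest level both came from methamphetamine. Klhl2 encodes a kelch protein that brings substrates to cullin 3 ubiquitin ligase. Its strongest position, chr8:64762276-64762375 in intron 6 of 14, had 24637 reads, with 5058, 4659 and 4452 CPM in saline and 3152, 5144 and 3618 CPM in methamphetamine. Klhl2 varied least between libraries of the 4 genes, 1.63-fold from the lowest to the highest library against 2.51-fold for Cobl, 2.64-fold for Psd3 and 2.94-fold for Magi1.

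The genes chosen on the signal value of the methamphetamine list had positions of far fewer reads. Hoxa10, a homeobox transcription factor of posterior body patterning, had 1 position, chr6:52236998-52237097 in the only intron of a transcript that is not the principal one. It held 980 reads, at 174, 128 and 242 CPM in saline and 71.5, 205 and 138 CPM in methamphetamine. Dbf4 encodes the regulatory subunit of the CDC7 kinase that starts DNA replication. Its single position, chr5:8406174-8406273 in intron 6 of 11, held 768 reads, at 138, 168 and 166 CPM in saline and 72.6, 153 and 109 CPM in methamphetamine.
The position named for Plod2, whose protein is a lysyl hydroxylase that modifies collagen, was 134 nt from the nearest exon of Plod2 and 479 nt from the start of that gene. Its 816 reads came to 155, 109 and 179 CPM in saline and to 93.5, 170 and 104 CPM in methamphetamine. Whether reads were counted by strand is not given in the sources used here, so RNA of Plod2 and of Gm38391 cannot be told apart by these counts. Methamphetamine replicate 1 was the lowest library for all 3 of these positions, and the treatments overlapped in each.

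**Figure D1:**
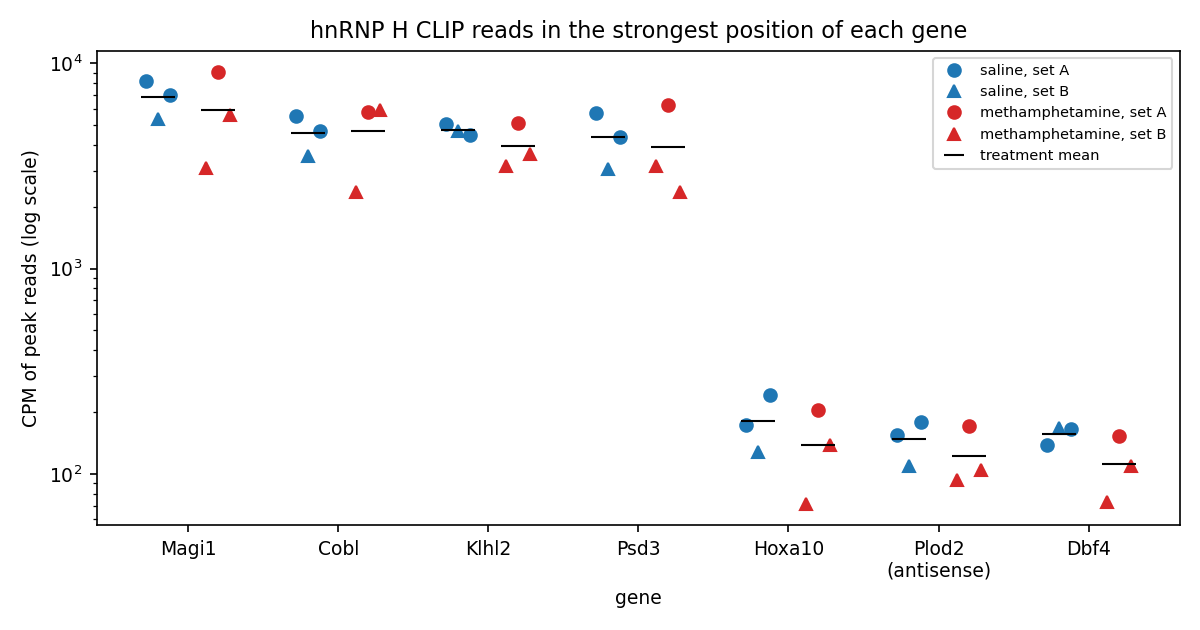
Level of the strongest position of each gene in each of 6 CLIP libraries, in CPM of the peak reads on a log axis; colours stand for the treatment, circles for library set A, triangles for set B and dashes for the treatment mean (n = 3). Positions chosen on reads lie between 2352 and 9034 CPM and those chosen on the signal value of the methamphetamine list between 71.5 and 242 CPM, with the treatments overlapping in each gene.

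In Magi1, Cobl, Klhl2 and Psd3 a single position held nearly all of the CLIP reads that the gene had in positions. Reads elsewhere in a gene were not part of the counts, so all shares here are of reads in positions. The share was 98.6% ± 0.62 for Magi1, 97.9% ± 0.43 for Psd3, 97.6% ± 0.47 for Klhl2 and 88.8% ± 0.69 for Cobl (SD over 6 libraries). For Cobl most of the remainder was in the adjoining tile. The spread of these shares between libraries was small beside that of the levels: for Magi1 the share ran from 97.8% to 99.3%. Of 680 genes with at least 5 positions and 1000 reads, the median gene had 31.9% of its reads in its strongest position, the 90th percentile was 77.7% and 45 genes were above 85%. By this share Magi1 ranked 2, Psd3 5, Klhl2 7 and Cobl 37. Since the genes were chosen for the reads in that position, a high share was partly set by the choice. Together the 4 positions took 2.02% of all reads in positions, from 1.17% in methamphetamine replicate 1 (Wilson 95% interval 1.15% to 1.20%) to 2.62% in methamphetamine replicate 2 (2.59% to 2.65%). UMI-tools, which handles molecular identifiers, is among the tools in the submitters' processing notes, but whether the counts are of molecules or of reads is not given in the sources used here, so the intervals cover counting error only.

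**Figure D2:**
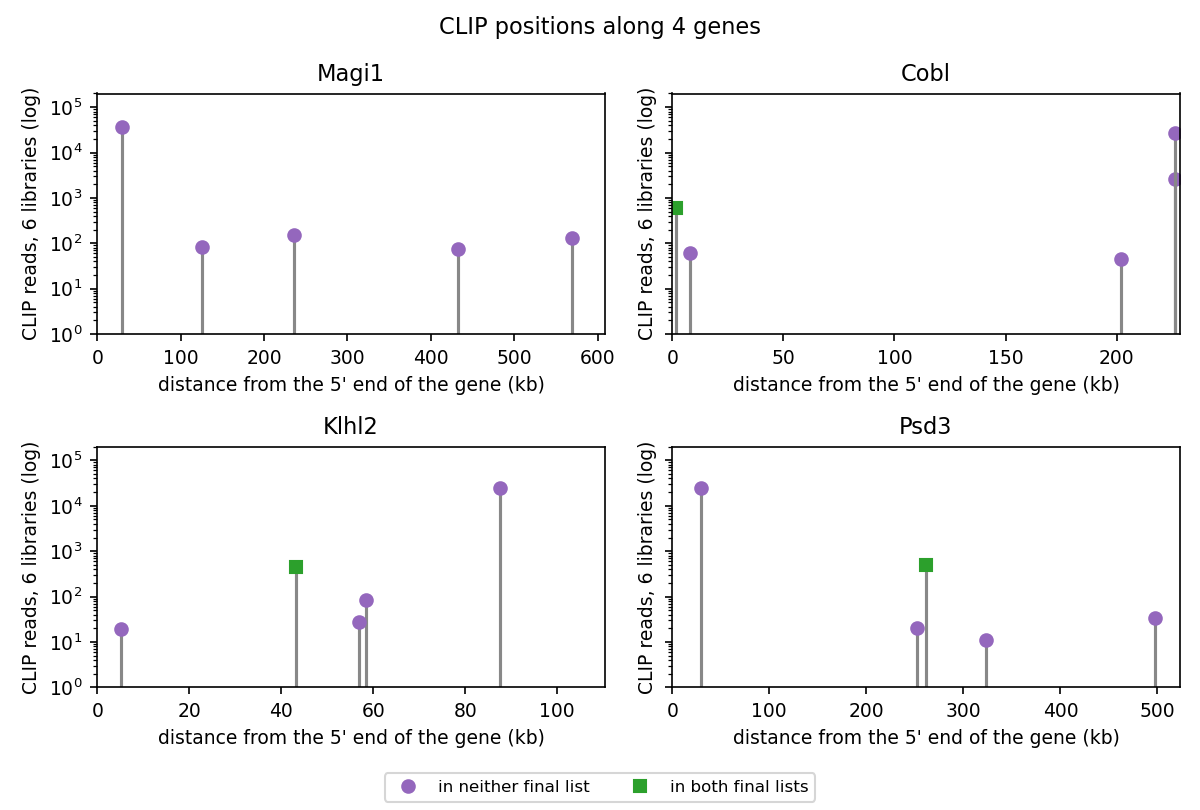
Reads summed over 6 CLIP libraries (log axis) at each position of Magi1, Cobl, Klhl2 and Psd3 against the distance from the 5′ end of the gene in kb; squares are positions in both deposited final lists and circles positions in neither. Each gene has 1 position above 20000 reads, and in Cobl the adjoining tile with 2670 reads sits beside it.

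The other 16 positions of these 4 genes were weak. They held 11 to 2670 reads, and outside the Cobl neighbour none had more than 603. Those in the final lists were secondary positions. In Cobl it was chr11:12463209-12463308 with 603 reads, in Psd3 chr8:67950483-67950582 with 487 reads and in Klhl2 chr8:64806676-64806775 with 456 reads. The authors' deposited lists gave them signal values of 3.12, 3.08 and 2.05 for methamphetamine and 2.71, 2.83 and 2.64 for saline, in that order. Magi1 had no position in either list. All 23 positions of the 7 genes were on the minus strand, which 46.5% of all intron positions were. The positions within each of the 4 genes share the strand of that gene, so the 23 are not separate observations. Of the 10 intron positions with the most reads, 90% were on the minus strand.

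None of the 4 strongest intron positions by reads was in either final list. The final lists held 9903 positions for methamphetamine and 9537 for saline, and 8.19% of the 117504 intron positions were in at least 1 of them. Of the 10 intron positions with the most reads, 0 were listed (Wilson 95% interval up to 27.8%), and the first listed one was in Fam19a1, at rank 11 with 13736 reads. The listed share was 7.78% at ranks 11 to 100 and 12.5% at ranks 101 to 500, and it reached 62.3% at ranks 2001 to 5000. It then fell to 3.35% at ranks 20001 to 50000. Hoxa10 at rank 479 and Dbf4 at rank 635 lay in ranges where most positions were not listed. Both were chosen from the methamphetamine list, so that their own listing was set by the choice.

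**Figure D3:**
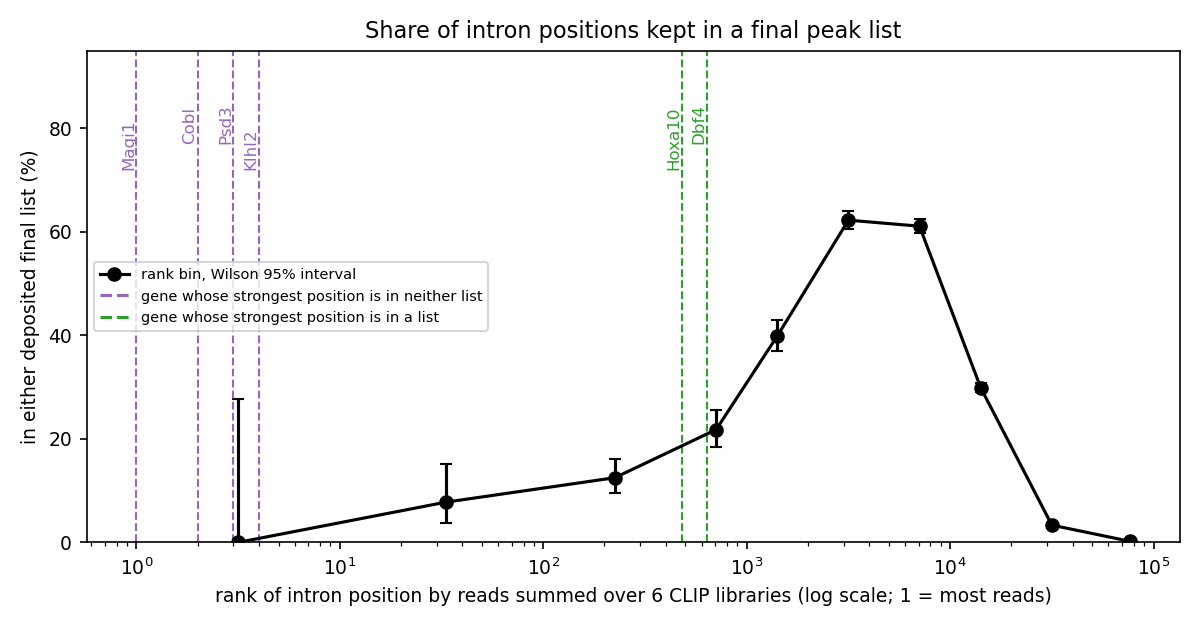
Share of intron positions in either deposited final list (%) against their rank by reads summed over 6 CLIP libraries (log axis), in 10 rank bins with Wilson 95% intervals; dashed lines mark 6 of the genes. The share is 0 at ranks 1 to 10, where Magi1, Cobl, Psd3 and Klhl2 lie, and highest, 62.3%, at ranks 2001 to 5000.

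A further deposited table, a merged list of 149140 positions, gave all 7 positions a signal value of the authors. It was 7.07 for Psd3, 6.59 for Klhl2, 6.44 for Plod2, 5.87 for Magi1, 5.57 for Dbf4, 5.42 for Cobl and 4.58 for Hoxa10. Of the 4 positions chosen on reads, Psd3 ranked 166 in that list, Klhl2 369, Magi1 952 and Cobl 1606. They were thus near the top of the list but were not the positions with the highest signal. Hoxa10, which was not chosen on reads, ranked 3970. Over the top ranks the listed share was lower where the merged signal was higher, as it was for the reads. Of the 100 intron positions with the highest merged signal 4% were in a final list, at ranks 1001 to 2000 the share was 49.7%, and at ranks 2001 to 5000 it was 78.1%. Among the 1000 intron positions with the most reads, the 166 listed ones had a median merged signal of 4.19 and the others one of 5.69. How the final lists were drawn from the merged one is not given in the sources used here.

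Within the methamphetamine list, the authors' deposited signal value was 5.94 for Hoxa10, 5.90 for Plod2 and 5.62 for Dbf4. In the saline list it was 3.54 for Plod2 and 3.97 for Dbf4, and Hoxa10 was not in that list. The scale of the signal value is not stated, so no change was read from the pairs of values. In the counts, the mean level of all 3 positions was lower in methamphetamine than in saline: 138 ± 66.8 against 181 ± 57.3 CPM for Hoxa10, 123 ± 41.7 against 148 ± 35.8 CPM for Plod2 and 112 ± 40.3 against 157 ± 16.8 CPM for Dbf4 (SD, n = 3). In edgeR these were log2 differences of −0.25, −0.08 and −0.36, given without a test because the choice used the methamphetamine libraries. The position of Hoxa10, which was in the methamphetamine list alone, thus had 54 to 395 reads in each saline library.

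Just outside the choice on reads were Mcc with 23472 reads, Galnt6 with 18149 and Arhgap32 with 17630, none of them in a final list. Klhl2, the last one inside, had 24637 reads. Just outside the choice on the signal value were positions named for Ibtk at 5.61 and for Tnfsf11 and Car5a at 5.55, against 5.62 for Dbf4. The one named for Ibtk lay, like that of Plod2, on the strand opposite to the named gene, and it had only 90 reads.

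The treatments overlapped at every position of the 4 genes chosen on reads. With edgeR's quasi-likelihood test on all positions that passed the count filter, no position of 10358 reached an adjusted p under 0.05 (0%), while 347 (3.35%) had an unadjusted p under 0.05. DESeq2 on the same positions also called 0, with 345 at an unadjusted p under 0.05. For the strongest position of Magi1 the methamphetamine mean was 5910 ± 2991 CPM against 6849 ± 1437 CPM in saline (SD, n = 3), a log2 difference of −0.08 with a standard error of 0.31. Its 95% interval ran from −0.81 to 0.65, and the adjusted p was 0.9998 by edgeR. For Cobl the means were 4691 ± 2027 and 4582 ± 1008 CPM, and the log2 difference was 0.20 (95% interval −0.57 to 0.97). For Klhl2 they were 3971 ± 1042 and 4723 ± 308 CPM, with a difference of −0.08 (−0.69 to 0.53), and for Psd3 3913 ± 2043 and 4379 ± 1335 CPM, with 0.01 (−0.80 to 0.82). The adjusted p was 0.9998 by edgeR for each of these 3 positions as well. The intervals were wide: that of Psd3 ran from a level lower by 0.80 to one higher by 0.82 on the log2 scale. Changes within this range were not resolved with 3 pools a treatment. Each interval is for 1 position and not adjusted over the 10358, so it does not give the size of change that could be called.

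Of the 20 positions of these 4 genes, 13 passed the filter and 7 did not. Of those 13, 0 were called, 0 had an unadjusted p under 0.05, and in 0 the 3 libraries of one treatment were all above those of the other, which 7.49% of all tested positions were (2.65% with methamphetamine above saline and 4.84% below). The log2 differences of the 13 ran from −0.45 to 1.25, with 6 above 0 and 7 below and a median of −0.005, against a median of 0.05 over all tested positions. The value of 1.25 was that of the Magi1 position chr6:93714256-93714355, which had 128 reads in all. It came to 16.1, 23.6 and 15.3 CPM in saline and to 25.3, 8.16 and 75.6 CPM in methamphetamine, where replicate 3 alone was high.

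The library sets separated 4 of the 7 strongest positions, Magi1, Psd3, Hoxa10 and Plod2, with every library of set A above every library of set B. The same held for 26.8% of all tested positions. Since the sets were drawn from these libraries, some separation was set by the division. For Magi1 set A had 6967 to 9034 CPM and set B 3073 to 5622 CPM, and for Psd3 they had 4353 to 6227 and 2360 to 3150 CPM. Set A libraries were also those with the higher summed striatal projection neuron markers, 7203 to 8368 against 5193 to 6029 CPM in RNA-seq, and the part of this in the result was not tested. With the set as a term in the edgeR fit, a fit added after the data were seen, the log2 difference between the treatments was 0.02 for Magi1 and 0.16 for Psd3. Within set A the difference of mean log2(CPM + 1), methamphetamine replicate 2 against saline replicates 1 and 3, was 0.26 for Magi1 and 0.32 for Psd3. Within set B, methamphetamine replicates 1 and 3 against saline replicate 2, it was −0.37 and −0.16. With 1 library on one side of each contrast these values have no test.

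The 7 positions rose and fell together only in part over the 6 libraries. Pearson's r of log2(CPM + 1) between them ran from 0.38 for Psd3 and Cobl to 0.92 for Plod2 and Hoxa10, with a median of 0.78 over 21 pairs. These points share libraries, depth and the library sets, and r over 6 libraries is given as a description. Against 7572 other intron positions with at least 60 reads, the median r for Magi1 was 0.53, and the most similar positions were in Vps13d and Trappc12 (both 0.999) and Ispd (0.996). For Cobl they were in Fbxw11, Ppip5k1 and Il1rapl2, for Klhl2 in Gm13791, Gna14 and Hs3st3a1, and for Psd3 in Ccdc9, Pus7 and Osbpl1a. Positions in Ecpas, Rian and Gm37240 were the nearest to Hoxa10, those in Malrd1, Gm14554 and Trappc9 to Plod2, and those in Sdsl, 2610307P16Rik and Fhl1 to Dbf4. As the highest of so many values over 6 libraries, these r are high through the search itself. The Vps13d position had 69 reads in all. No member's position had another with counts within 5% of its own in every library.

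The 4 genes chosen on reads also had higher RNA-seq levels than the other members. That these 4 had the most CLIP reads was set by the choice. For Plod2 the RNA level is that of Plod2 itself and not of Gm38391. Per kb of annotated exon, Klhl2 had a mean of 18.4 CPM (range 17.2 to 21.3 over 6 libraries), Cobl 17.1 (13.4 to 20.5), Psd3 12.6 (8.92 to 16.0) and Magi1 6.68 (5.64 to 8.03). Hoxa10 had 0.902 CPM per kb (0.336 to 2.11), Plod2 0.280 (0.176 to 0.391) and Dbf4 0.0851 (0.0343 to 0.156). Neighbours in this order overlapped for Klhl2 and Cobl, for Cobl and Psd3, and for Hoxa10 and Plod2, and they did not overlap for Psd3 and Magi1, Magi1 and Hoxa10, or Plod2 and Dbf4. Magi1, first by CLIP reads, thus had the lowest RNA level of the 4 genes chosen on reads. Dbf4 had 1 to 5 RNA-seq reads in a library and Plod2 4 to 10, so that their RNA levels rest on few reads.

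**Figure D4:**
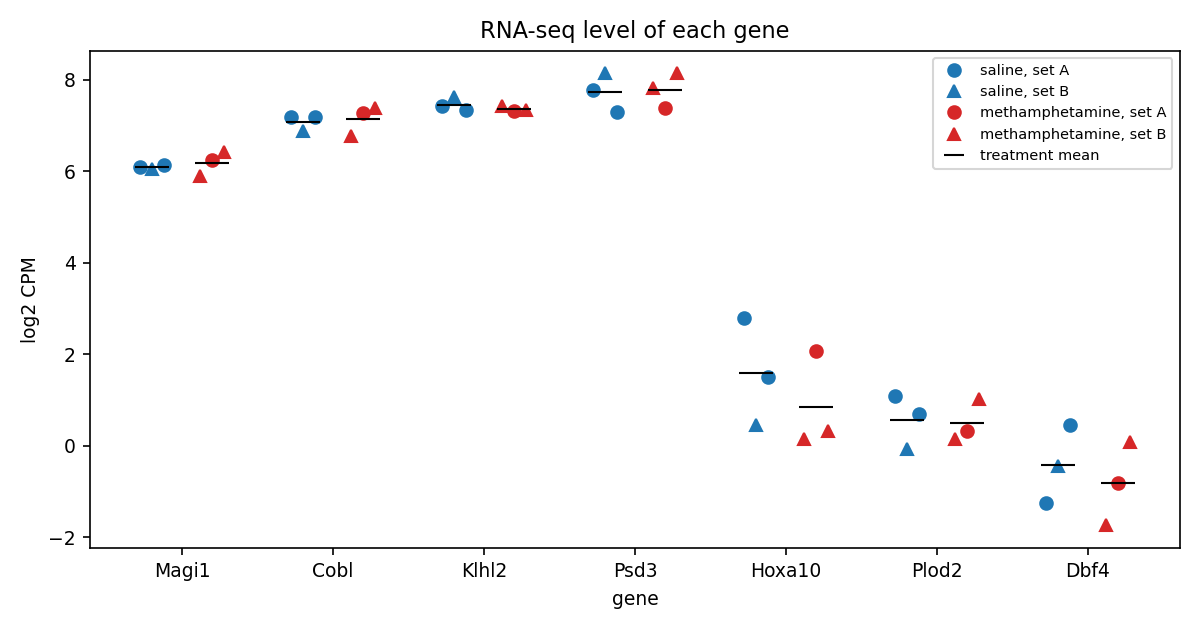
RNA-seq level of the 7 genes in each of 6 libraries, as deposited log2 CPM; colours stand for the treatment, circles for library set A, triangles for set B and dashes for the treatment mean (n = 3). Magi1, Cobl, Klhl2 and Psd3 lie between 5.90 and 8.14 and the other three genes between −1.74 and 2.78, with overlapping treatments in each gene.

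RNA levels of the 7 genes did not separate by treatment. By limma, 0 of 18208 genes (0%) had an adjusted p under 0.05 and 276 (1.52%) an unadjusted p under 0.05, and none of the 7 genes was among the latter. Psd3 had 7.76, 8.14 and 7.30 log2 CPM in saline and 7.83, 7.37 and 8.14 in methamphetamine, a difference of 0.05 (95% interval −0.54 to 0.63). Magi1 had 6.08, 6.05 and 6.12 in saline and 5.90, 6.23 and 6.41 in methamphetamine, a difference of 0.09 (−0.30 to 0.48). The saline libraries of Magi1 lay within the range of the methamphetamine ones. For Cobl the difference was 0.06 (−0.38 to 0.50) and for Klhl2 −0.10 (−0.44 to 0.24). The adjusted p of each of the 7 genes was 0.9998 by limma.

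Hoxa10 was the member with the most uneven RNA level. It had 24, 6 and 11 reads in saline and 5, 18 and 6 reads in methamphetamine, or 2.78, 0.46 and 1.51 against 0.14, 2.08 and 0.33 log2 CPM, a difference of −0.74 (95% interval −2.36 to 0.88). The difference was −0.14 without saline replicate 1, −1.35 without methamphetamine replicate 2 and −0.15 with the library set as a term. The 3 libraries with 11 or more reads were those of set A, so that the sets did not overlap while the treatments did. Plod2 differed by −0.07 (−1.24 to 1.10) and Dbf4 by −0.41 (−1.99 to 1.17). In 0 of the 7 genes were the treatments apart, as they were in 6.01% of all genes.

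The RNA of Psd3 and the reads at its strongest CLIP position were ordered in opposite ways by the library sets. In RNA-seq set A had 7.30 to 7.76 and set B 7.83 to 8.14 log2 CPM, a direction that 19.9% of all genes had, while in CLIP set A was above set B. For Hoxa10 both assays put set A above set B, which 18.9% of genes did in RNA-seq. The markers of striatal projection neurons, cortical excitatory neurons, astrocytes and microglia, but not those of oligodendrocytes and choroid plexus, were apart between the same sets, and their part in either pattern was not tested.

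**Figure D5:**
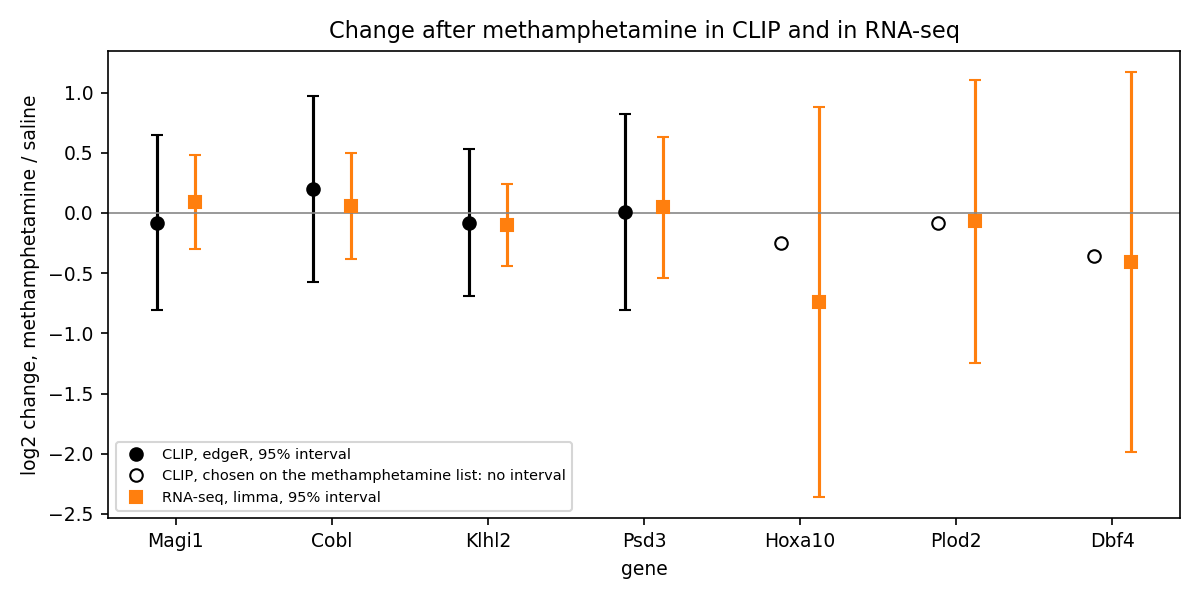
Log2 difference between methamphetamine and saline at the strongest CLIP position (circles, edgeR) and in the RNA-seq level (squares, limma) of each gene, with 95% intervals; open circles are positions chosen on the methamphetamine list, shown without an interval. Each interval drawn includes 0, and the widest are those of the RNA-seq levels of Hoxa10 and Dbf4.

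Most relatives and partners of the 7 genes had few CLIP reads. Since the 7 genes were chosen for strong positions, a lower level in their relatives was partly set by the choice. Of 28 such genes, 20 had at least 1 position. Of these 20, 9 had one in a final list, as did 42.2% of all genes with a position, and the median of their strongest positions was 43.5 reads. Magi2, a synaptic scaffold of the same family as Magi1, had 20 positions, and the strongest, chr5:19907037-19907136, had 2651 reads in an intron and was not listed. Psd2 reached 2617 reads outside an intron, and these were the only 2 of the 28 above 1000 reads. Both had more reads than the strongest positions of Hoxa10 (980), Plod2 (816) and Dbf4 (768). Magi3 had 15 positions with 14 reads at most and Cul3, the ligase partner of Klhl2, 12 positions with 29 at most. Cdc7, the kinase that Dbf4 activates, had 1 position with 7 reads. In RNA-seq 0 of the 28 were called by limma and 0 had an unadjusted p under 0.05. Their log2 differences had a median of −0.05 against 0.00 over all genes, with 10 above 0 and 18 below, and the treatments did not overlap in 4 of them, against 6.01% of all genes. Every methamphetamine library was above every saline one in Psd2 (2.44% of all genes) and below it in Klhl1, Hoxa6 and Hoxa9 (3.58%). Hoxa6 had 1, 2 and 0 reads in saline and 0 in each methamphetamine library. Saline replicate 3 was thus apart from methamphetamine only through the offset and the library sizes, not through reads.

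The Hoxa cluster around Hoxa10 was near the floor of the RNA-seq. The other 10 Hoxa genes of the list had at most 17 reads in a library, and 9 of them had log2 differences below 0. In CLIP, 4 had a position: Hoxa9 with 148 reads, which was listed, Hoxa7 with 99, Hoxa3 with 26 and Hoxa2 with 23. The 980 reads of Hoxa10 were thus the most in the cluster. Hoxa9 had 13, 17 and 9 RNA-seq reads in saline and 8, 9 and 5 in methamphetamine, a log2 difference of −1.03 (95% interval −2.07 to 0.01) whose adjusted p was 0.9998 by limma.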

How the data were processed

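The deposited CLIP table held whole-number counts per position of 6 libraries (3 per treatment), per the file headers. Its 172271 lines gave 147438 distinct positions, each used once. The authors deposited RNA-seq levels as log2 CPM, and 100% of the values inverted to whole reads (tolerance 0.01) with an offset of 0.5 reads. The deposited peak lists gave a signal value without a named scale, used as a score, and p-values per the file headers, which were not used. The build was mm10 (GRCm38), and STAR, UMI-tools and featureCounts are among the tools, per the submitters' processing notes.

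Positions were compared with the quasi-likelihood test of edgeR 4.0.16 (filterByExpr, TMM) and, as an alternative, DESeq2 1.42.0, and RNA-seq log2 CPM with limma 3.58.1 (lmFit, eBayes with trend) in R 4.3.3, each over all features with Benjamini-Hochberg adjustment at 0.05. The fits were also run on simulated data, with changes planted only in features above the median level and without the library sets. That run does not measure how well they find changes in these data. Positions were placed in introns by their midpoint with GENCODE M21. Each library is a pool of mice per the labels, so p-values measure the spread between 3 pools. Alternatives covered filters, scaling, the test, the offset, the replicate block, the library set and each replicate left out.

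The members and gene lists were chosen with earlier results of these data known. Named were the 7 genes, the 3 positions next in each ranking, 28 relatives and partners, and the 3 intron positions most similar to each member. Promoter sequences were not used here.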

Additional observations from a re-analysis of the deposited data

How the results depend on the processing

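Counts of called positions and genes were 0 under each alternative but 1: without the count filter edgeR called 406 of 147438 CLIP positions, 24 of them higher in methamphetamine. Libraries with the same replicate number did not deviate together (correlation of same-numbered deviations −0.82 to −0.35 in RNA-seq and −0.55 to −0.08 in CLIP). Each number joins a library of set A to a library of set B, so these correlations cannot show whether the numbers pair. With a replicate block 0 were called, and 144 genes (limma) and 127 positions (edgeR) had an unadjusted p under 0.05. The Psd3 position turned to −0.0371 in that fit. No log2 difference of the 7 genes in RNA-seq, or of the 4 positions chosen on reads in CLIP, passed the threshold under the settings run; the positions of Hoxa10, Plod2 and Dbf4 had no test. Several values near 0 changed sign; the cause was not tested. Psd3 in CLIP was −0.0234 with DESeq2, −0.0572 scaled to the total and −0.36 without the filter, and Cobl −0.17 without the filter. With the library set as a term, CLIP was 0.0195 for Magi1 and 0.0088 for Plod2, and RNA-seq −0.16 for Psd3 and 0.0487 for Plod2. Leaving out each replicate in turn gave CLIP ranges of −0.34 to 0.0891 for Magi1, −0.0542 to 0.39 for Cobl, −0.30 to 0.25 for Psd3, −0.48 to −0.04 for Hoxa10 and −0.24 to 0.0124 for Plod2, and RNA-seq ranges of −0.0202 to 0.23 for Magi1, −0.0616 to 0.24 for Cobl, −0.17 to 0.25 for Psd3, −1.35 to −0.14 for Hoxa10, −0.39 to 0.19 for Plod2 and −0.86 to 0.0499 for Dbf4.
Without the 1% of positions with the most reads, mean CPM in saline and methamphetamine were 14095 and 11904 for Magi1, 9431 and 9493 for Cobl, 9687 and 7830 for Klhl2, 9026 and 7683 for Psd3, 373 and 278 for Hoxa10, 304 and 242 for Plod2, and 322 and 223 for Dbf4. Counting only listed positions beside it, the strongest position held 97.7% in Cobl and 98.1% in Klhl2. Magi1 had no listed position, so that its share of 100% was fixed in advance.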

Other observations

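Among the 100 intron positions with the most CLIP reads, 3 pairs had counts within 5% of each other in all 6 libraries. A position in Ano1 (chr7:144605950-144606049) had 1890, 692 and 3217 reads in saline and 1000, 1874 and 760 in methamphetamine. One in Csmd1, on another chromosome (chr8:16943538-16943637), had 1872, 694 and 3199 reads and 981, 1845 and 762. In the 2 other pairs, Zhx3 with Gm16751 and Zfp595 with Gm28044, the positions overlapped each other on the genome and their counts were identical.

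Of these 100 positions 57 were on the minus strand and 7 were in a final list, and together they held 14.0% of all CLIP reads in positions. Hoxa4 and Hoxa9 were the members of the Hoxa list whose RNA-seq intervals came closest to excluding 0, at −2.65 to 0.03 for Hoxa4 and −2.07 to 0.01 for Hoxa9, and the adjusted p of both was 0.9998 by limma.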
